A study of Rattus norvegicus with 12 samples.

Results

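The genes examined here carry the symbols Zfp (zinc finger protein) and Zbtb (zinc finger and BTB domain containing), measured in the heart of aged rats that had lived with or without access to physical activity. A member is an array probe set, a group of short probes against 1 transcript, whose only gene symbol in the probe annotation is Zfp or Zbtb followed by a number and whose mean log2 value over all 12 arrays lies in the upper 60% of the probe sets that are not array controls. This gave 269 probe sets of 187 genes, out of 18626 probe sets in that range. They comprised 43 probe sets of 28 Zbtb genes and 226 probe sets of 159 Zfp genes. By symbol alone there were 399 probe sets of 255 genes, so 130 probe sets lay below the limit and 68 genes had no probe set above it. The limit was a mean of 4.94 on the log2 scale. Zbtb10, Zfp653 and Zfp777 lay just outside it with means of 4.86, 4.87 and 4.92, and Zfp790, Zfp655 and Zfp318 just inside it with 4.94, 4.95 and 4.97. The family was picked for study because Zbtb4 and Zfp91 had been seen to be higher in the active groups, that is, it was chosen by log2 values of these arrays, and their differences from the sedentary group are given below as a description, with no test.

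All arrays came from the left ventricle of female Sprague-Dawley rats (Charles River) aged 16 months, and no group carried a transgene or a drug. The group EX had lifelong access to voluntary exercise. Rats of the group PA spent 1 h in a large box 2 times a week, and rats of the group SED lived in a standard cage alone. Each group has 4 Affymetrix Rat Genome 230 2.0 arrays. The design text names 12 animals per group with 4 pooled per array, which would fill 3 arrays rather than the 4 listed, so the animals behind each array are not settled. A p-value here measures the spread between arrays of pooled RNA, not between single rats.

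Most Zfp proteins bind DNA through tandem C2H2 zinc fingers, and many also carry a KRAB domain, which recruits the co-repressor Trim28 and through it the histone methyltransferase Setdb1. Zbtb proteins join C2H2 fingers to a BTB/POZ domain, which forms dimers and binds co-repressors such as Ncor1 and Bcor. The symbol rule also takes in a few genes of another kind. Zfp36, Zfp36l1 and Zfp36l2 have CCCH fingers that bind AU-rich elements of mRNA and promote its decay, and Zbtb11os1 and Zbtb8os are named for lying opposite a Zbtb gene.

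Zbtb4 and Zfp91 are the genes for which the family was chosen, and their promoters are shown for that reason. Zbtb4 encodes a repressor that binds methylated CpG. Zfp91 encodes a zinc finger ubiquitin ligase that acts on the kinase Map3k14 in the noncanonical NF-κB pathway. The sequences are from RefSeq on the GRCr8 build and run from 250 bases before to 50 bases after the gene's start. The Zbtb4 promoter lies at chr10:54984036-54984335 on the plus strand, and the Zfp91 promoter at chr1:219352369-219352668 on the minus strand. Capitals mark each GC box (GGGCGG) and CCAAT box (CCAAT) on either strand, searched as exact letters.
Zbtb4: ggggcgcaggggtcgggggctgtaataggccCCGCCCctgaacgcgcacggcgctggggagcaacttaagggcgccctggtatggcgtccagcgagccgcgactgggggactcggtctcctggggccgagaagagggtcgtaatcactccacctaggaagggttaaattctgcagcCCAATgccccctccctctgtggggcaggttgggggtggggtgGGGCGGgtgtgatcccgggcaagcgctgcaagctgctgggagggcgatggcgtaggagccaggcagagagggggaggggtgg
Zfp91: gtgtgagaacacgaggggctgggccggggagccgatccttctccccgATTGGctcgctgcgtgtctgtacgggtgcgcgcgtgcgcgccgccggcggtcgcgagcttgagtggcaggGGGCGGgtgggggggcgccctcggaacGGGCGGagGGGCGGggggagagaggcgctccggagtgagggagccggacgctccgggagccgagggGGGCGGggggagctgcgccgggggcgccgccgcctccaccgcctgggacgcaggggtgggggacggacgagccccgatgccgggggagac
The Zbtb4 window held 2 GC boxes, 1 CCAAT box and 20 CpG, with 68.7% G or C. The Zfp91 window held 4 GC boxes, 1 CCAAT box and 41 CpG, with 78.3% G or C. These are letter matches in a window, and no binding was measured.

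The first SED array, SED 1, stood apart from the other 11 arrays. Its correlation with the other arrays averaged 0.938, against 0.977 to 0.981 for each of the other 11, and its interquartile range was 3.58 against 3.73 to 4.04. The difference between 3′ and 5′ control probe sets, a measure of RNA integrity, was 1.56 for Gapdh in SED 1 and 0.96 to 1.35 elsewhere. It was the lowest of the 12 arrays for 89 of the 269 members, as it was for 34.4% of all tested probe sets, and the highest for 65. Values without it are given beside the differences that it moved most. Cardiomyocyte markers were high on all arrays, with a list mean between 12.96 and 13.06 over 9 tested genes. The mean of 11 leukocyte markers was 7.29 to 7.38 in EX, 7.33 to 7.69 in PA and 7.17 to 8.14 in SED. Against SED, 1 of the 11 was higher in EX and 10 were lower, 3 of them with an unadjusted p under 0.05, at a median difference of -0.20. In PA 5 were higher and 6 lower, at a median of -0.02. Without SED 1 the medians were -0.38 and -0.26, and 0 and 3 of the 11 were higher. The mean of 5 blood cell markers ranged from 6.43 to 8.70 within SED, and 2 of the 5 were higher in EX and 4 in PA, or 1 in each without SED 1. Of the other lists, 2 of 9 cardiomyocyte, 6 of 8 fibroblast, 2 of 7 endothelial, 3 of 6 smooth muscle and pericyte, 1 of 2 adipocyte, 3 of 5 atrial, 2 of 3 epicardial and 0 of 1 nerve genes tested had a higher mean in EX than in SED. In PA these counts were 2, 5, 2, 1, 1, 4, 1 and 0. The mean of the atrial markers ran from 7.29 to 9.11 within EX. No marker passed the limma test used below, and at most 3 of a list had an unadjusted p under 0.05. The part of these markers and of RNA integrity in the results below was not tested.

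Zbtb4 is measured by a pair of probe sets that gave different pictures. On 1375302_at the log2 values were 7.77, 7.65, 7.77 and 7.59 in EX, 7.73, 7.82, 7.58 and 7.70 in PA, and 6.99, 7.29, 7.26 and 7.10 in SED. All 8 active arrays lay above all 4 SED arrays, with differences of 0.54 ± 0.10 (SE from the model, n = 4 per group) for EX and 0.55 ± 0.10 for PA. Without SED 1 these differences were 0.48 and 0.49. On the brighter probe set 1375867_at the values were 11.35, 11.40, 11.33 and 11.25 in EX, 11.18, 11.22, 11.38 and 11.47 in PA, and 11.08, 11.21, 11.19 and 11.30 in SED. Here the groups overlapped and the differences were 0.14 ± 0.09 and 0.12 ± 0.09. EX and PA themselves differed by -0.01 ± 0.10 on the first and 0.02 ± 0.09 on the second (limma, unadjusted p = 0.899 and 0.831).

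Zfp91 is covered by 7 probe sets, more than any other member gene, and each of them had a higher mean in EX and in PA than in SED. The largest difference was on 1383052_a_at, whose probes are shared by transcripts of the gene. Its values were 8.40, 8.12, 8.11 and 8.40 in EX, 8.16, 8.28, 8.03 and 7.93 in PA, and 7.0, 7.53, 7.45 and 7.52 in SED. No active array reached down to a SED array, and the differences were 0.88 ± 0.14 for EX and 0.73 ± 0.14 for PA, or 0.76 and 0.60 without SED 1. On 1386512_at the values were 6.55, 6.15, 6.22 and 6.47 in EX, 6.10, 6.34, 6.15 and 6.17 in PA, and 5.33, 5.81, 5.71 and 5.97 in SED, again without overlap, with differences of 0.64 ± 0.14 and 0.49 ± 0.14. On 1383053_x_at, some of whose probes may cross-hybridise, SED 1 stood at 6.50 and the other SED arrays at 7.45 to 7.50, so that the EX difference of 0.68 ± 0.20 became 0.44 without SED 1, and the PA difference of 0.55 ± 0.20 became 0.31.

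The other 4 Zfp91 probe sets had smaller or less even differences. On the brightest, 1399044_at, the values were 11.19, 11.21, 11.26 and 11.20 in EX, 11.22, 11.15, 11.01 and 11.22 in PA, and 10.91, 11.14, 11.01 and 11.15 in SED. The EX arrays lay just above the highest SED array and the PA arrays overlapped SED, with differences of 0.16 ± 0.09 and 0.10 ± 0.09. The probe sets 1377105_at and 1383463_at had EX differences of 0.44 ± 0.15 and 0.17 ± 0.12 and PA differences of 0.27 ± 0.15 and 0.26 ± 0.12. On 1383054_at the order of the group means was EX, PA, SED: the values were 9.40, 9.11, 9.18 and 9.15 in EX, 8.97, 9.05, 8.73 and 8.93 in PA, and 8.55, 8.64, 8.53 and 8.77 in SED. EX lay above PA without overlap there, by 0.29 ± 0.10 (limma, unadjusted p = 0.0153, adjusted p = 1), while on 1383463_at EX minus PA was -0.09 ± 0.12. EX lay above SED without overlap on 6 of the 7 probe sets, and PA on 3.

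**Figure D1:**
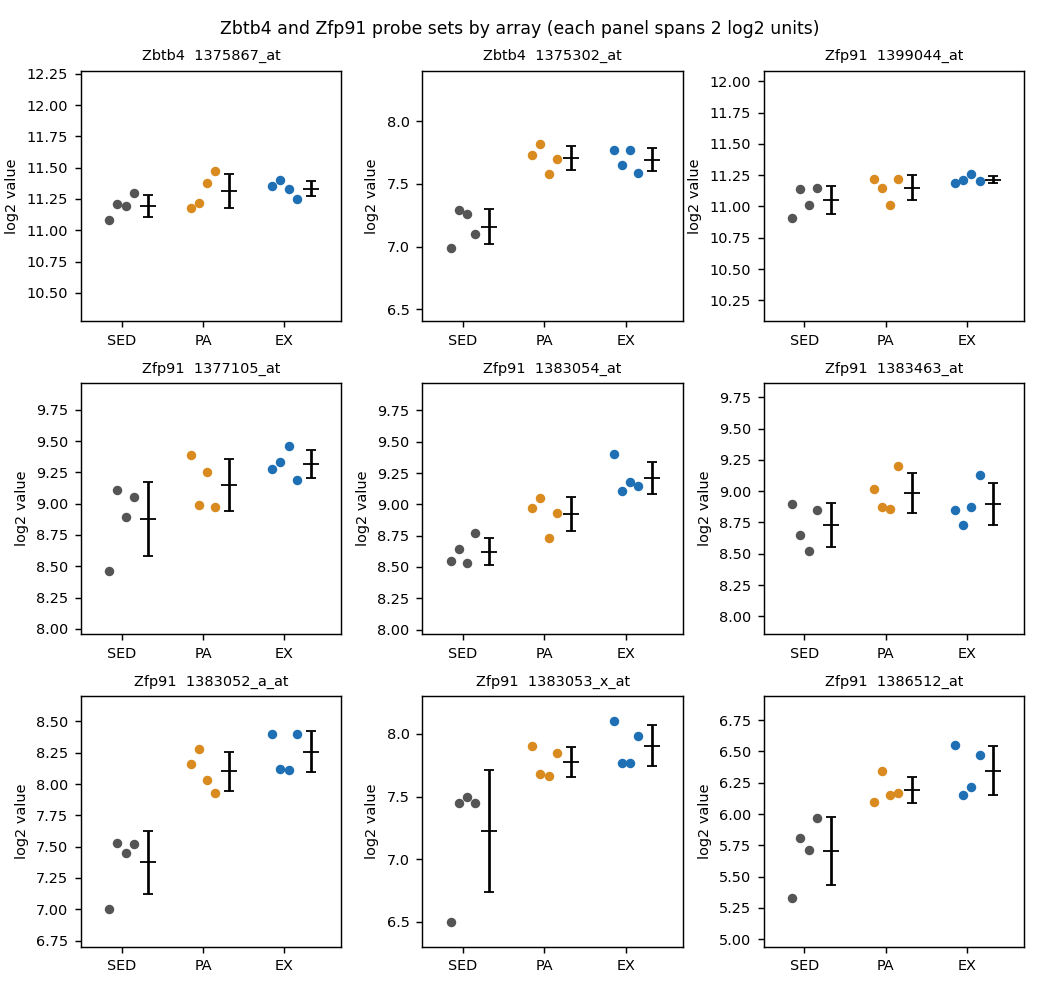
Log2 value of each array (points) for the probe sets of Zbtb4 and Zfp91 in SED, PA and EX, with the group mean ± SD (n = 4) beside the points; each panel spans the same length of axis. On Zbtb4 1375302_at and Zfp91 1383052_a_at the 8 active arrays lie above the 4 SED arrays, while on Zbtb4 1375867_at the groups overlap.

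Over the whole family the values ranged from near the limit to among the brightest on the array. The mean log2 value of the members ran from 4.94 to 12.39 with a median of 7.21, against a median of 7.42 over all tested probe sets, and 45 members (16.7%) lay among the brightest 25% of these. The brightest members were Zfp106, an RNA-binding protein needed to maintain muscle and motor neurons, with 12.39, Zfp422 with 12.34, the mRNA decay factors Zfp36l1 and Zfp36l2 with 12.15 and 12.01, and Zfp24, known for its part in myelination, with 11.55. The dimmest were Zfp790, Zfp347, Zfp362, Zbtb48 and Zfp94, between 4.94 and 5.11. Probe sets differ in how well they bind, so these means do not rank the transcripts. The bright genes differed little between groups: Zfp106 by -0.06 ± 0.08 in EX and -0.02 ± 0.08 in PA from SED, and Zfp422 by 0.00 ± 0.08 and -0.03 ± 0.08. The dim Zfp347 had 5.55, 4.73, 5.37 and 5.43 in EX, 5.20, 5.01, 5.13 and 5.48 in PA, and 3.38, 4.89, 4.72 and 4.80 in SED, and its PA difference of 0.76 ± 0.30, without overlap, was 0.40 without SED 1. Zfp790 differed by 0.86 ± 0.49 and 0.40 ± 0.49 with wide overlap, or by 0.47 and 0.01 without SED 1. Zfp362 and Zfp94 differed by -0.20 ± 0.14 and -0.19 ± 0.17 in EX, and by -0.32 and -0.31 in PA. The spread within groups was like that of the array as a whole. The median SD over members was 0.193 in EX, 0.177 in PA and 0.265 in SED, and 0.147 in SED without SED 1, against 0.172, 0.159, 0.256 and 0.158 over all tested probe sets.

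In the comparison of the active groups with SED, no member passed the test. Each probe set was tested with limma in 1 model of the 3 groups and adjusted by Benjamini-Hochberg over all 18626 probe sets, with a threshold of 0.05, and 0% of all probe sets passed in any comparison. Zbtb4 and Zfp91 apart, 260 member probe sets remain. Of these, 30 were higher in EX than in SED with an unadjusted p under 0.05 (11.5%), where 9.3% of all tested probe sets were, and 10 were lower (3.85%), where 6.3% were, with the smallest adjusted p at 0.115. In PA against SED 37 were higher (14.23%, against 9.28%) and 13 lower (5.0%, against 5.97%), with the smallest adjusted p at 0.165. For EX and PA joined into 1 group 38 were higher (14.6%, against 11.9%) and 14 lower (5.38%, against 7.3%), and the smallest adjusted p was 0.0681. Both comparisons use the same SED arrays, so they are not independent of each other. Tissue was measured in bulk, so a change in cell numbers and a change in RNA per cell cannot be told apart.

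More members were higher than lower in the active groups, as were more of all tested probe sets. Of the 269 members, 169 had a higher mean in EX than in SED (62.8%, against 59.7% of all tested probe sets) and 98 a lower one, with a median difference of 0.08 against 0.055. For PA against SED, 168 were higher (62.5% against 60.9%) and 101 lower, with a median of 0.105 against 0.0625. These tallies hold the 9 probe sets of Zbtb4 and Zfp91, by which the family was chosen. Without them 160 of 260 were higher in EX (61.5%) and 159 in PA (61.2%), with medians of 0.0663 and 0.08. After quantile normalization, which gives all arrays the same distribution, 51.7% of the 269 were higher in EX and 53.9% in PA, against 50% and 50.7% of all tested probe sets, and the members' medians were 0.00885 and 0.0353. Without SED 1 the shares were 65.1% and 69.5% against 56.9% and 60.3%, with medians of 0.0658 and 0.0708 against 0.0317 and 0.0408. Zbtb probe sets had medians of 0.0275 for EX and 0.0475 for PA, and Zfp probe sets, those of Zfp91 included, 0.0838 and 0.109.

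All tested probe sets were split by mean level into 3 ranges of equal number. In the dim range, 95 members had a median difference of 0.0525 for EX and 0.08 for PA, where all probe sets of that range had -0.03 and -0.0325. After quantile normalization the 95 members had medians of 0.0577 and 0.0566 against -0.0419 and -0.0365. In the middle range the 105 members had medians of 0.13 and 0.155 against 0.118 and 0.133. In the bright range the 69 members had medians of 0.0375 and 0.07 against 0.0525 and 0.065. After quantile normalization the bright members had -0.0133 in EX, where all bright probe sets had 0.0101. Without Zbtb4 and Zfp91 the medians were 0.05 and 0.0788 for 94 dim members, 0.126 and 0.145 for 102 middle ones and 0.0112 and 0.055 for 64 bright ones.

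**Figure D2:**
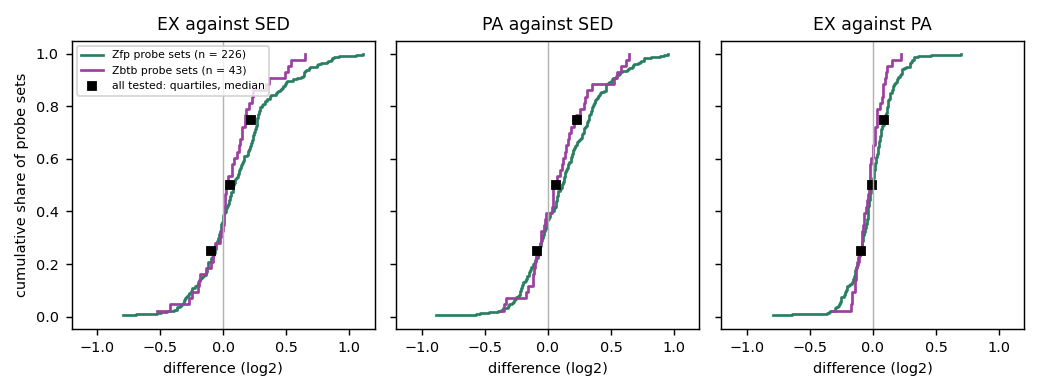
Cumulative share of the member probe sets (vertical axis) against the difference between group means on the log2 scale (horizontal axis), for Zfp (n = 226) and Zbtb (n = 43) probe sets in each of the 3 comparisons; squares are the quartiles and median of all tested probe sets. The curves cross a share of 0.5 to the right of 0 in both comparisons with SED and close to 0 for EX against PA.

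Groups that do not overlap give a further count. For EX against SED, 16 members had all 4 EX arrays above all 4 SED arrays, where 4.39% of all tested probe sets did, and 5 had them all below, where 3.51% did. Without Zbtb4 and Zfp91, which supply 7 of the 16, the counts were 9 (3.46%) and 5 (1.92%), below the share of the array in both directions. For PA against SED, 22 members lay wholly above, with 4.88% of all probe sets, and 6 wholly below, with 3.51%, and without Zbtb4 and Zfp91 the counts were 18 (6.92%) and 6 (2.31%). With the 8 active arrays against the 4 SED arrays, 8 members lay wholly above, where 1.59% of all probe sets did, and 3 wholly below, where 1.75% did. Of the 8, 4 were probe sets of Zbtb4 and Zfp91. The others were Zbtb5, Zfp532, and a probe set each of Zbtb20 and Zfp846, and those wholly below were Zbtb17, Zbtb24 and Zfp503.

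Among the Zbtb genes, each taken at its brightest probe set, the lower values in the active groups were the most even. Zbtb24, mutated in a human syndrome of immunodeficiency and loss of centromeric DNA methylation, had values of 5.0, 5.10, 5.06 and 4.93 in EX, 5.17, 5.23, 5.05 and 5.21 in PA, and 5.59, 5.48, 5.39 and 5.72 in SED. The groups did not overlap, and the differences were -0.52 ± 0.09 for EX and -0.38 ± 0.09 for PA (limma, adjusted p = 0.115 and 0.168). Its other probe set, 1384362_at, had differences of 0.02 ± 0.14 and 0.19 ± 0.14, so the gene's direction rests on 1 dim probe set. Zbtb17, which encodes Miz-1, a partner of Myc, had 6.71, 6.37, 6.55 and 6.49 in EX, 6.52, 6.75, 6.71 and 6.48 in PA, and 7.32, 6.90, 6.79 and 6.78 in SED, with the highest value in SED 1. Its differences were -0.42 ± 0.13 and -0.33 ± 0.13, or -0.29 and -0.21 without that array. Zbtb48, a telomere-binding protein, lay lower in EX than in SED without overlap, by -0.20 ± 0.09, and by -0.10 ± 0.09 in PA with overlap.

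Zbtb5, known as a repressor of the cell cycle inhibitor Cdkn1a, was the clearest in the other direction. Its values were 6.38, 6.73, 6.47 and 6.32 in EX, 6.75, 6.38, 6.72 and 6.58 in PA, and 5.39, 6.29, 6.13 and 6.04 in SED. The groups did not overlap, though SED 1 was by far the lowest, and the differences of 0.51 ± 0.18 and 0.65 ± 0.18 (limma, adjusted p = 0.206 and 0.189) became 0.32 and 0.45 without it. Zbtb39 had 7.34, 7.45, 7.37 and 7.33 in EX and 6.95, 7.21, 7.11 and 6.76 in SED, without overlap, a difference of 0.37 ± 0.13, while PA overlapped SED with 0.28 ± 0.13. Zbtb41 had larger but looser differences of 0.49 ± 0.30 and 0.58 ± 0.30, which were 0.20 and 0.29 without SED 1. Zbtb11os1 differed by 0.20 ± 0.19 in EX and 0.52 ± 0.19 in PA, and by 0.37 and 0.69 without SED 1.

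Zbtb20, a repressor studied in liver and hippocampus, has 6 probe sets whose EX differences ran from 0.005 to 0.65. The probe set with 0.65 ± 0.23, 1385087_at, had values of 8.54, 8.62, 8.90 and 8.95 in EX, 8.99, 8.66, 8.52 and 8.71 in PA, and 7.30, 8.38, 8.36 and 8.36 in SED. The active arrays all lay above SED, but SED 1 was more than a log2 unit below the other SED arrays, and the difference was 0.39 without it. The brightest Zbtb20 probe set differed by 0.24 ± 0.17, or 0.04 without SED 1.

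Most of the bright Zbtb genes showed small differences. Zbtb43 differed from SED by 0.005 ± 0.09 in EX and 0.04 ± 0.09 in PA. Zbtb18, a transcriptional repressor in brain and muscle development, differed by -0.08 ± 0.09 and -0.06 ± 0.09, or by -0.02 and 0.0033 without SED 1. Zbtb38, which like Zbtb4 binds methylated CpG, differed by -0.02 ± 0.09 and 0.04 ± 0.09 on its brightest probe set, or by 0.01 and 0.07 without SED 1. Zbtb1, needed for lymphocyte development, differed by 0.07 ± 0.09 and 0.14 ± 0.09, or by 0.04 and 0.11 without SED 1, and Zbtb7a by -0.18 ± 0.17 and -0.16 ± 0.17, or -0.09 and -0.06 without SED 1. Of the remaining Zbtb genes, Zbtb21 had the largest differences, 0.23 ± 0.14 in EX and 0.26 ± 0.14 in PA. Zbtb2, another repressor of Cdkn1a, differed by 0.18 ± 0.18 and 0.17 ± 0.18, and by 0.32 and 0.30 without SED 1. Zbtb42, whose human counterpart is mutated in a muscle disease, differed by 0.11 ± 0.15 in both groups, and by 0.23 without SED 1. Zbtb45 and Zbtb47 were lower in EX, by -0.19 ± 0.19 and -0.14 ± 0.17, or -0.36 and -0.25 without SED 1, and Zbtb40 by -0.06 ± 0.22, or -0.27 without SED 1. With all arrays, the differences of Zbtb6, Zbtb8a, Zbtb8os, Zbtb9, Zbtb11, Zbtb14, Zbtb22 and Zbtb44 lay between -0.09 and 0.17 in EX and between -0.11 and 0.22 in PA. No Zbtb gene passed the test.

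**Figure D3:**
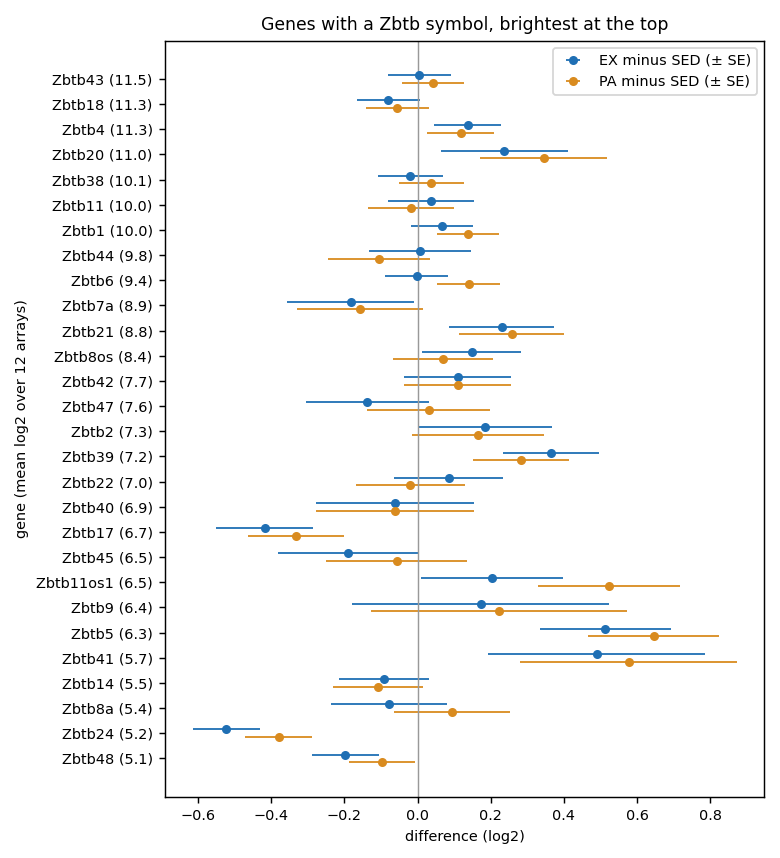
Difference from SED on the log2 scale (horizontal axis) for EX and PA at the brightest probe set of each of the 28 genes with a Zbtb symbol, with the model's SE as bars; the number in brackets is the mean log2 value over 12 arrays. Zbtb24 and Zbtb17 lie farthest to the left and Zbtb5 and Zbtb41 farthest to the right, and most of the brightest genes lie near 0.

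Among the Zfp genes, most of those with a low p-value against SED were higher in the active groups. Zfp746, which encodes PARIS, a repressor of the mitochondrial regulator Ppargc1a, had 7.64, 7.86, 7.85 and 7.83 in EX, 7.86, 7.90, 7.97 and 7.93 in PA, and 7.46, 7.49, 7.71 and 7.46 in SED. PA lay above SED without overlap by 0.39 ± 0.09, and EX, with 1 array below the highest SED array, by 0.27 ± 0.09 (limma, adjusted p = 0.165 and 0.197). After quantile normalization the differences were 0.28 and 0.15. Zfp532 had 7.33, 7.17, 7.32 and 7.57 in EX, 7.14, 7.36, 7.39 and 7.39 in PA, and 6.93, 6.85, 7.06 and 7.05 in SED. It separated both active groups from SED, by 0.38 ± 0.11 and 0.35 ± 0.11, and was little altered without SED 1, at 0.36 and 0.33.

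Zfp667, described in rat myocardium as a gene induced by ischaemic preconditioning, had 8.75, 8.88, 8.40 and 8.33 in EX, 8.44, 8.63, 8.68 and 8.71 in PA, and 7.85, 8.37, 8.12 and 8.05 in SED. PA did not overlap SED and EX did by 1 array, with differences of 0.52 ± 0.15 and 0.49 ± 0.15 (limma, adjusted p = 0.192 and 0.161). Zfp629 differed by 0.31 ± 0.11 in EX and 0.37 ± 0.11 in PA, and Zfp512b by 0.43 ± 0.17 and 0.54 ± 0.17, with some overlap for both genes. Another cardiac member, Zfp260, known as an effector of adrenergic signalling in the heart, differed by 0.30 ± 0.18 and 0.27 ± 0.18, or 0.09 and 0.06 without SED 1; it was named for that role after its values had been seen.

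For a group of genes the difference came to a large part from SED 1. Zfp455l1 had SED values of 3.52, 5.07, 4.91 and 4.79, and its EX difference of 1.05 ± 0.32 was 0.70 without the first. Zfp280d had 6.84, 8.06, 8.18 and 7.88 in SED, and its EX difference of 0.75 ± 0.25 became 0.45. Zfp652, a repressor that binds the co-repressor Cbfa2t3, had 4.75, 6.39, 6.20 and 6.14 in SED, and its PA difference of 0.89 ± 0.30 became 0.51. Zfp637 had 6.63, 7.33, 7.25 and 7.27, and its PA difference of 0.46 ± 0.16 became 0.30. In each of the 4 the active mean stayed above the SED mean without that array.

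Lower values in the active groups were fewer. Zfp503, known as Nolz1 in the developing striatum, had 6.32, 6.26, 5.96 and 6.18 in EX, 6.18, 6.15, 6.22 and 6.09 in PA, and 6.75, 6.45, 6.46 and 6.84 in SED. No active array reached the SED range, and the differences were -0.45 ± 0.11 and -0.47 ± 0.11 (limma, adjusted p = 0.134 and 0.168). Its other probe sets differed by 0.68 ± 0.40 and 0.16 ± 0.48 in EX, or by 0.34 and 0.74 without SED 1, and the average over the gene's probe sets was 0.13, so the sign for the gene depends on the probe set. Zfp385a, first described in blood-forming cells, had 6.12, 5.96, 5.93 and 5.80 in EX and 6.54, 6.29, 6.25 and 6.19 in SED, a difference of -0.37 ± 0.11 without overlap, and of -0.27 ± 0.11 in PA with overlap.

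One probe set outside the brightest of its gene was singled out after its values were seen. On 1393543_at of Zfp846 the values were 6.37, 5.52, 5.96 and 5.82 in EX, 6.14, 5.76, 5.55 and 5.61 in PA, and 5.31, 5.10, 4.48 and 5.12 in SED. The active arrays all lay above SED, by 0.92 ± 0.21 and 0.76 ± 0.21, and by 1.02 and 0.86 without SED 1, so that here the difference was larger without that array. The gene's brightest probe set differed by 0.38 ± 0.19 and 0.33 ± 0.19, with overlap, or by 0.19 and 0.14 without SED 1.

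The CCCH genes can be set apart by function. Zfp36, which encodes tristetraprolin and is induced by many stimuli, had 8.38, 8.32, 8.39 and 8.39 in EX, 8.41, 8.57, 8.79 and 8.62 in PA, and 7.99, 8.47, 8.59 and 8.05 in SED. The EX arrays lay close together, while the SED arrays ran from 7.99, below all EX arrays, to 8.59, within the PA range. Differences from SED were 0.10 ± 0.14 in EX and 0.32 ± 0.14 in PA, or 0.00 and 0.23 without SED 1. EX lay below PA without overlap by -0.23 ± 0.14 (limma, adjusted p = 1). Zfp36l1 differed from SED by -0.04 ± 0.07 in EX and -0.0025 ± 0.07 in PA, and Zfp36l2 by -0.03 ± 0.07 and 0.03 ± 0.07.

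**Figure D4:**
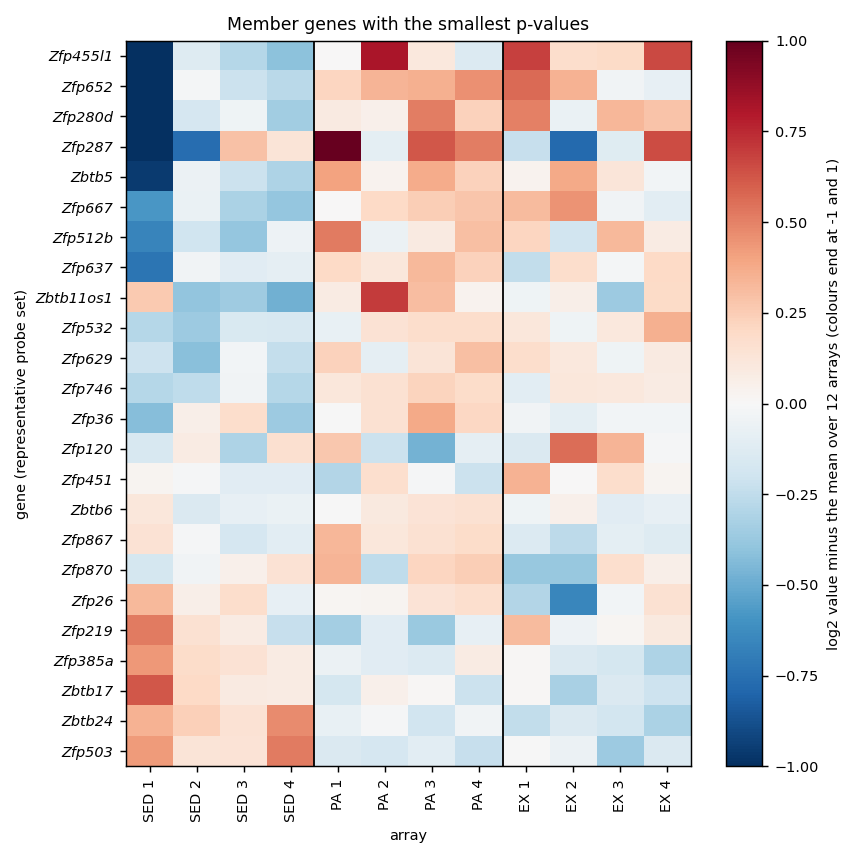
Log2 value minus the gene's mean over 12 arrays, in colour from -1 to 1, for the 24 member genes that ranked among the 10 lowest p-values of at least 1 comparison (rows, brightest probe set of each gene; Zbtb4 and Zfp91 left out) on each array (columns). The SED 1 column holds the deepest colours, with Zfp455l1, Zfp652 and Zfp280d among the lowest there, and the SED columns of Zfp503 and Zbtb24 are all above their means.

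EX against PA asks whether lifelong exercise differs from short regular activity, and here all members can be tested. Of the 269 members 124 were higher and 143 lower in EX, with a median of -0.0125 against -0.01 over all tested probe sets, and no adjusted p was under 1. An unadjusted p under 0.05 was found for 2 members with limma, Zfp867, lower in EX, and the Zfp91 probe set described above, higher in EX. Each is 0.372% of the members, where 1.43% of all tested probe sets were higher and 1.43% lower at such a p. There were 3 members (1.12%) wholly above PA, where 1.33% of all tested probe sets were, and 4 (1.49%) wholly below, where 1.45% were. The shares without overlap are near those of the whole array, while the shares at the unadjusted p are below them.

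Zfp867 had 5.44, 5.32, 5.48 and 5.45 in EX, 5.91, 5.69, 5.73 and 5.76 in PA, and 5.72, 5.57, 5.41 and 5.47 in SED. EX lay below PA by -0.35 ± 0.09 (limma, unadjusted p = 0.00273), and the SED arrays overlapped both groups. Zfp219, a partner of Sox9 in cartilage, had 9.85, 9.48, 9.55 and 9.63 in EX and 9.19, 9.42, 9.16 and 9.45 in PA, a difference of 0.32 ± 0.15 without overlap, while SED ran from 9.30 to 10.05. Zfp451, a SUMO ligase, differed by 0.23 ± 0.12, Zfp26 by -0.29 ± 0.16, Zfp870 by -0.27 ± 0.16 and Zfp120 by 0.31 ± 0.19. Zfp287 had the largest difference of these, -0.64 ± 0.38, with EX between 5.50 and 6.93 and PA between 6.18 and 7.32. Zbtb6 and Zbtb11os1 differed by -0.14 ± 0.09 and -0.32 ± 0.19.

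Probe sets of the same gene often disagreed. Of the 187 genes, 132 had 1 member probe set and 55 had several. All probe sets of a gene had the same sign in 28 of the 55 genes for EX against SED, in 25 for PA against SED and in 22 for EX against PA, and the median range within a gene was 0.285, 0.345 and 0.14. Signs were opposite with a range of at least 0.3 in 20, 23 and 10 genes. Zfp24 had EX differences of -0.07 ± 0.07 at its brightest probe set and 0.64 ± 0.35 and 0.31 ± 0.17 at the others. Zfp638, a factor in adipocyte differentiation, had -0.13 ± 0.15, 0.49 ± 0.21 and 0.86 ± 0.26. Zfp148 had -0.02 ± 0.08, 0.08 ± 0.12 and 0.50 ± 0.21, and Zfp423, a determinant of preadipocytes, had 0.01 ± 0.12, -0.17 ± 0.17 and -0.31 ± 0.11. Without SED 1 the largest of these became smaller, 0.18 for Zfp24, 0.55 for Zfp638 and 0.26 for Zfp148, and that of Zfp423 was -0.27, while the brightest probe set of Zfp638 turned to 0.01. The others with opposite signs over such a range in EX against SED were Zbtb24, Zbtb7a, Zfp213, Zfp292, Zfp317, Zfp318, Zfp503, Zfp536, Zfp574, Zfp61, Zfp629, Zfp655, Zfp704, Zfp827, Zfp84 and Zfp865. As with Zbtb4 and Zfp91, the dimmest probe set had a larger difference in size than the brightest in 37 of the 55 genes (67.3%) for EX against SED, close to the 66.7% of all 2626 tested genes with several probe sets.

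The proteins through which zinc finger repressors act were read from lists. Of the KRAB co-repressor genes, which include Trim28 and Setdb1, 11 of 13 were tested, 4 were higher and 7 lower in EX than in SED, and 0 passed the test with limma (0 with an unadjusted p under 0.05; 2 in PA against SED). Their median was -0.0425, and without SED 1 it was 0.0167, with 6 of the 11 higher. In PA 5 were higher, with medians of -0.0175 and -0.00667. Trim28 itself differed by -0.16 ± 0.12 in EX and 0.03 ± 0.12 in PA, or by -0.20 and -0.02 without SED 1, and Setdb1 by -0.18 ± 0.16 and -0.02 ± 0.16. Morc2, part of the same silencing system, differed by 0.63 ± 0.29 and 0.68 ± 0.29, or 0.25 and 0.30 without SED 1. The nucleosome remodeller Chd3 had -0.27 ± 0.14 and -0.34 ± 0.14. Of the co-repressors bound by BTB domains and their histone deacetylases, 15 of 18 were tested and 0 passed with limma (1 and 4 with an unadjusted p under 0.05). They were split at 8 higher and 7 lower in both comparisons, and 7 and 8 were higher without SED 1. Hdac4, a class IIa deacetylase of muscle, had -0.46 ± 0.14 and -0.40 ± 0.14, and Hdac7 had -0.32 ± 0.16 and -0.43 ± 0.16, or -0.17 and -0.28 without SED 1, while Hdac3, the deacetylase of the Ncor1 complex, had 0.28 ± 0.13 and 0.35 ± 0.13.

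Other genes for proteins that bind methylated CpG, as Zbtb4 does, and for the related Mbd3 had small differences. The member Zbtb38 is among them, so this list is not separate from the family. Zbtb4 left out, 5 of 9 were tested, of which 3 were higher in EX and 4 in PA, or 3 and 3 without SED 1. Mbd2 and Mbd3 differed by 0.17 ± 0.10 and -0.15 ± 0.10 in EX, or by 0.15 and -0.23 without SED 1. None passed the limma test, and 0 had an unadjusted p under 0.05. A list for the noncanonical NF-κB pathway also holds Tnfrsf1a, Nfkb1 and Rela of the canonical pathway. These differed by -0.15, -0.08 and -0.05 in EX and by 0.18, -0.03 and -0.13 in PA. Of the whole list, Zfp91 left out, 11 of 13 were tested, with 4 higher and 7 lower in EX and 5 and 6 in PA. Map3k14, the kinase on which Zfp91 acts, was not among the 11. With limma 0 passed (1 and 2 with an unadjusted p under 0.05). Without SED 1, 4 and 7 were higher. Nfkb2, the precursor that the pathway processes, had 7.27, 7.14, 6.95 and 6.85 in EX, 7.23, 6.91, 6.76 and 7.10 in PA, and 8.08, 7.68, 7.48 and 7.09 in SED. Its SED values overlapped with the active ones at the low end, and the differences were -0.53 ± 0.19 and -0.58 ± 0.19, or -0.36 and -0.42 without SED 1. The ubiquitin ligase Birc2 had 0.39 ± 0.20 and 0.59 ± 0.20, or 0.18 and 0.37 without SED 1, and the kinase Chuk 0.37 ± 0.22 and 0.40 ± 0.22, which became 0.08 and 0.12 without SED 1.

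C2H2 transcription factors with other symbols served as a neighbouring family. The list also holds the histone methyltransferases Ehmt1 and Ehmt2, which are not C2H2 factors and were counted with it. These differed by -0.06 and -0.29 in EX and by 0.02 and -0.13 in PA. Of 62 listed, 50 were tested, each at 1 probe set. In EX 24 were higher and 25 lower, with a median of -0.0025, and in PA 26 and 24, with a median of 0.0025. At 1 probe set a gene, the 187 member genes, Zbtb4 and Zfp91 included, had medians of 0.075 and 0.08. All 10244 tested genes had 0.0325 and 0.0475. Without SED 1 the medians of the list were 0.0621 and 0.0321. Over probe sets, with several for some genes, those of the members were then 0.0658 and 0.0708 and those of all tested probe sets 0.0317 and 0.0408. In EX the list then lay above all tested probe sets, though 1 median is over genes and the other over probe sets. None of the 50 passed with limma, and 4 and 5 had an unadjusted p under 0.05. Rest, a repressor of neuronal genes, had 6.54, 7.06, 6.56 and 7.21 in EX, 6.70, 6.53, 6.92 and 6.28 in PA, and 5.55, 6.10, 6.31 and 6.06 in SED. EX lay above SED without overlap by 0.84 ± 0.21 and PA, whose lowest array fell within the SED range, by 0.60 ± 0.21 (limma, adjusted p = 0.134 and 0.229). Without SED 1 these differences were 0.69 and 0.45. Among the BTB proteins that serve Cul3 ubiquitin ligases, 20 of 22 were tested, and 12 were higher in EX (60%) and 15 in PA (75%) than in SED. Of all tested genes at 1 probe set a gene, 56.9% and 59.7% were. Of the 20, 16 were lower and 4 (20%) higher in EX than in PA, with a median of -0.0875. Of all tested genes 44.1% were higher, with a median of -0.0175. None of the 20 passed with limma, and 2, 2 and 0 had an unadjusted p under 0.05 in the 3 comparisons. Across the 7 lists no gene had an unadjusted p under 0.05 in EX against PA. Klhl41, a muscle protein, had 0.39 ± 0.15 and 0.47 ± 0.15, or 0.24 and 0.32 without SED 1.

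A list for the decay of AU-rich mRNA holds Zfp36, Zfp36l1 and Zfp36l2 themselves, deadenylase genes and RNA-binding proteins such as Elavl1. Not all of these are recruited by the Zfp36 family. Of its 16 genes 13 were tested, and 9 were higher in EX and 10 in PA than in SED, with medians of 0.095 and 0.133. The shares higher were 69.2% and 76.9%, where 56.9% and 59.7% of all tested genes were at 1 probe set a gene. Without SED 1 the medians were 0 and 0.0617. None passed with limma, and 2 and 1 had an unadjusted p under 0.05. The deadenylase genes Cnot1 and Cnot8 had EX differences of 0.30 ± 0.12 and 0.29 ± 0.13, each 0.18 without SED 1, and Cnot6 had 0.43 ± 0.23, or 0.12 without SED 1.

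Many zinc finger genes lie in clusters. In RefSeq 183 of the 187 genes were found and 182 placed among protein-coding genes. Of these, 63 (34.6%) had a gene with a Zfp, Zbtb, Znf, Zscan or Zkscan symbol as an immediate neighbour. That was so for 243 (50.8%) of all 478 protein-coding genes with such a symbol and for 2.58% of the 22670 others. The 63 had a median EX difference from SED of 0.128 and a PA difference of 0.135, with 42 and 41 higher, and the other 119 had 0.0475 and 0.0625, with 69 and 70 higher. The clustered genes were also dimmer, with a median level of 7.24 against 7.85, and had fewer CpG in their promoters, 14 against 20 at the median. The part of level and CpG content in that difference was not tested.

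Promoter sequences of the same 300-base window were matched for 153 of the 187 genes. Their median G or C share was 57.7% and their median CpG number 18, against 55.3% and 12 over 18999 promoters. The GC box (GGGCGG) was found in 80 of them (52.3%), against 43.1% of all promoters, on either strand. The ETS site (CCGGAAG) was in 28 (18.3%) against 11.2%, the YY1 core (GATGGCG) in 14 (9.15%) against 4.97%, the E box (CACGTG) in 14 (9.15%) against 7.26%, and the CCAAT box in 65 (42.5%) against 38.4%. None of these motifs contains another of them. The shares describe the family's start sites and were not set against the differences between groups.

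**Figure D5:**
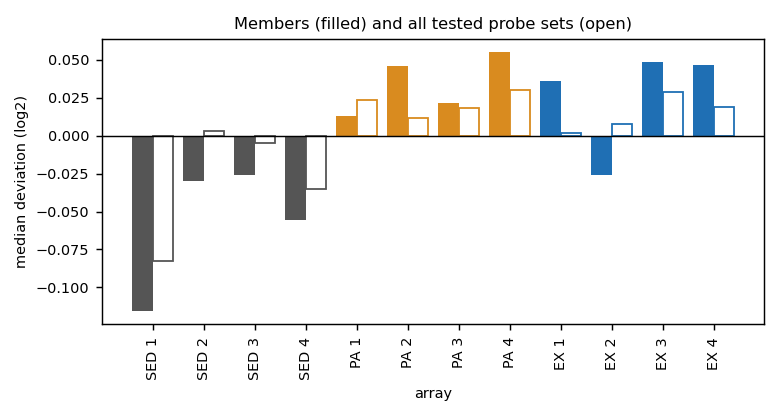
Median over probe sets of the log2 value minus the probe set's mean over 12 arrays (vertical axis, log2), for the 269 members, those of Zbtb4 and Zfp91 included (filled bars), and all tested probe sets (open bars) on each array, coloured by group. SED 1 is lowest at -0.116 for the members, and the 4 SED arrays lie below 0 for the members, as does EX 2.

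The median deviation of the members from their own means was -0.116 on SED 1 and between -0.0558 and 0.055 on the other 11 arrays. These medians hold the probe sets of Zbtb4 and Zfp91, by which the family was chosen, and were not worked out without them. By group it averaged 0.0263 ± 0.0352 (SD, n = 4) in EX, 0.0340 ± 0.0197 in PA and -0.0569 ± 0.0415 in SED, against 0.0144, 0.0208 and -0.0298 over all tested probe sets. On EX 2 and SED 2 the members had -0.0258 and -0.03, where all tested probe sets had 0.0075 and 0.00333. On the other arrays both medians had the same sign.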

How the data were processed

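The deposited values are on a log2 scale, for 31099 probe sets on 12 arrays. Both MAS5 and RMA appear in the submitters' processing notes, with no word on which of them made these values, so the background correction and summary behind them are not settled. The 57 control rows were left out. Of the other 31042 probe sets, 20826 have 1 gene symbol in the platform annotation, 436 have several and 9780 have none listed. Tests used the 18626 probe sets in the upper 60% by mean, on the values as deposited, with limma 3.58.1 in R 4.3.3 (3 group means, 9 residual degrees of freedom, moderated two-sided tests, Benjamini-Hochberg, threshold 0.05). Fold differences are on the log2 scale. Arrays have no read depth, and their number limits the precision. The fitting was tested on simulated data.

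A gene was named at its brightest member probe set. The rule for named genes takes Zbtb4 and Zfp91, the Zbtb genes, the CCCH genes, the 5 brightest and 5 dimmest genes, the 10 genes with the smallest p in each comparison, genes whose probe sets disagree, and the 3 genes with the smallest p of each list and comparison; values of the last 2 kinds are given for examples. The members, the 7 pathway lists and the 10 marker lists were chosen with earlier results of these data known. Alternatives were quantile normalization, equal array medians, no filter, a filter at the upper 40%, a trended robust variance, only the groups compared, the replicate number as a block, probe sets averaged per gene, and leaving out each array. The counts of members with a higher mean under these settings were added after the data were seen.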

Additional observations from a re-analysis of the deposited data

Results flagged for a closer look

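Single arrays were compared with the other 3 of their group for the values given here, 102 groups of 4 in all, by Dixon's test at the 95% level, and 9 stood apart. Chance gives about 1 in 20. Among the 9, SED 1 was the lowest of its group for 4 probe sets. It had 7.0 on Zfp91 1383052_a_at, where the other SED arrays had 7.45 to 7.53, and 6.50 on Zfp91 1383053_x_at, where they had 7.45 to 7.50. It had 6.63 on Zfp637, against 7.25 to 7.33, and 4.75 on Zfp652, against 6.14 to 6.39. The differences of these probe sets from SED were smaller when SED 1 was left out.

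Zfp746 had such an array in EX and in SED: EX 1 was lowest of EX with 7.64, against 7.83 to 7.86, and SED 3 was highest of SED with 7.71, against 7.46 to 7.49, and these arrays are the overlap between its EX and SED groups. PA 1 was lowest of PA on Zfp532, with 7.14 against 7.36 to 7.39. EX 2 was lowest of EX on Zfp36, with 8.32 against 8.38 to 8.39. For the median deviation of the members, EX 2 had -0.0258, where the other EX arrays had 0.0358 to 0.0483.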

How the results depend on the processing

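The count of members past the threshold was 0 in all 4 comparisons under every setting tried; the fit of only the groups compared was not run for EX and PA together. Quantile normalization moved the median difference of the members to 0.00885 in EX against SED (0.08 as deposited), 0.0353 in PA against SED (0.105) and 0.0209 for EX and PA together (0.0788). Without the filter, which adds dim probe sets, they were 0.02, 0.0475 and 0.0325. With 1 array left out, they ran from 0.0658 to 0.1025, from 0.0708 to 0.109 and from 0.0742 to 0.0963. The lowest EX value and the lowest PA value were both without SED 1. The medians and counts in this section hold the probe sets of Zbtb4 and Zfp91, by which the family was chosen. Without them, on the values as deposited, the medians were 0.0663, 0.08 and 0.0631. Wholly above SED were then 9, 18 and 4 of 260 members (3.46%, 6.92% and 1.54%, against 4.39%, 4.88% and 1.59% of all tested probe sets). Wholly below were 5, 6 and 3 (1.92%, 2.31% and 1.15%, against 3.51%, 3.51% and 1.75%). With Zbtb4 and Zfp91, members whose groups do not overlap numbered 21, 28 and 11 in these comparisons (7.81%, 10.4% and 4.09%; 7.89%, 8.39% and 3.34% of all tested probe sets). They numbered 42, 41 and 21 without the filter (10.5%, 10.3% and 5.26%; 9.0%, 10.1% and 4.10% of all), 13, 15 and 6 with the upper 40% (7.47%, 8.62% and 3.45%; 6.08%, 6.72% and 2.25% of all), and 6 for both together with probe sets averaged per gene (3.21%; 3.37% of all). With 1 array left out, which makes a lack of overlap easier, they ran from 21 to 37, 28 to 44 and 11 to 24, and from 7 to 16 for EX against PA, while the share of all tested probe sets ran from 7.89% to 13.7%, 8.39% to 14.7%, 3.59% to 7.04% and 2.78% to 6.44%. Without SED 1 there were 31, 42 and 16 (11.5%, 15.6% and 5.95%; 11.5%, 11.5% and 4.50% of all). Zfp503 turned from lower to higher with its probe sets averaged, at 0.13, 0.11 and 0.12. With the replicate number as a block, 0 members passed and the medians were the same. The numbers did not pair the arrays: same-numbered arrays of different groups had correlated deviations of -0.208 to 0.134, over 0.1 in 4 of 12 pairs, and 4 of 12 arrays were closest to their own number. Detection calls were not used here, so how far the dim probe sets lie above background is not known.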
